A study of Mus musculus with 2 samples.

Results

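Cysltr1, Ltb4r1 and Fpr2, receptor genes for leukotrienes and formyl peptides, were examined in sorted CD4+ alpha beta T cells. The cells came from the spleens of LatY136F and wildtype mice. The leukotriene-forming genes Alox5, Alox5ap and Ltc4s were sought as well. A gene was included when a probe carried its symbol alone in the platform annotation, which held for 4 of the 6 genes (Cysltr1, Ltb4r1, Fpr2 and Ltc4s, each with 1 probe) out of 4331 genes named on the array. Alox5 and Alox5ap had no such probe and were not analysed here. The LatY136F mice carry Lat, the adaptor that links the T cell receptor to its downstream signals, with a tyrosine changed to phenylalanine, and the comparison asks which transcripts differ in T cells with this substitution. Per the labels, the sort of both genotypes used anti-CD4 beads, and total RNA of both was hybridised together on each of 2 two-colour arrays with the dyes reversed. Age, strain background, number of mice and whether the extracts were separate are not stated in the labels, so the pair of arrays served as a single comparison and the genotypes were not tested against each other. The 3 receptors had been chosen with their values in these data known, so those values are given as a description.

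Leukotrienes are short-lived lipid messengers made from arachidonic acid. The enzyme 5-lipoxygenase (Alox5) and its helper protein (Alox5ap) form leukotriene A4, which Lta4h turns into leukotriene B4 and Ltc4s turns into the cysteinyl leukotrienes. The cysteinyl leukotrienes act on Cysltr1 in asthma and allergic inflammation, and leukotriene B4 draws neutrophils and activated T cells through Ltb4r1. Fpr2 is a chemoattractant receptor of myeloid cells that responds to bacterial formyl peptides and to host proteins such as annexin A1 and serum amyloid A. All 3 receptors are G protein-coupled.

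Values are log2 ratios of LatY136F over wildtype, centred on the median of each array, and ± is 0.5 times the gap between arrays 1 and 2, a gap that can be purely technical. The deposited table was taken to hold log10 ratios of channel 2 over channel 1, and array 2, which carried LatY136F RNA in channel 1, was multiplied by -1. Neither the base nor the direction is stated. The sample titles name wildtype first on array 1 and LatY136F first on array 2, without saying which was divided by which. Read as first over second, the titles would give signs opposite to those used. The direction used is therefore an assumption and not settled, and on the opposite reading every sign below turns. The deposited columns correlated with a Pearson r of -0.21 over 8014 probes. A gene was called when it was at least 2-fold higher or lower on both arrays. This held for 182 of 4331 genes (4.20%) on the higher side and for 42 (0.970%) on the lower side. A ratio does not show how bright a probe was, and in RNA of a cell population more cells of a type and more RNA per cell cannot be told apart.

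Of the 4 genes, Cysltr1 and Fpr2 were called higher in LatY136F cells, Ltb4r1 and Ltc4s were not called, and none was called lower. The background share of higher calls was the 4.20% given above, and nothing is read from the count because the receptors were chosen from these values.

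**Figure D1:**
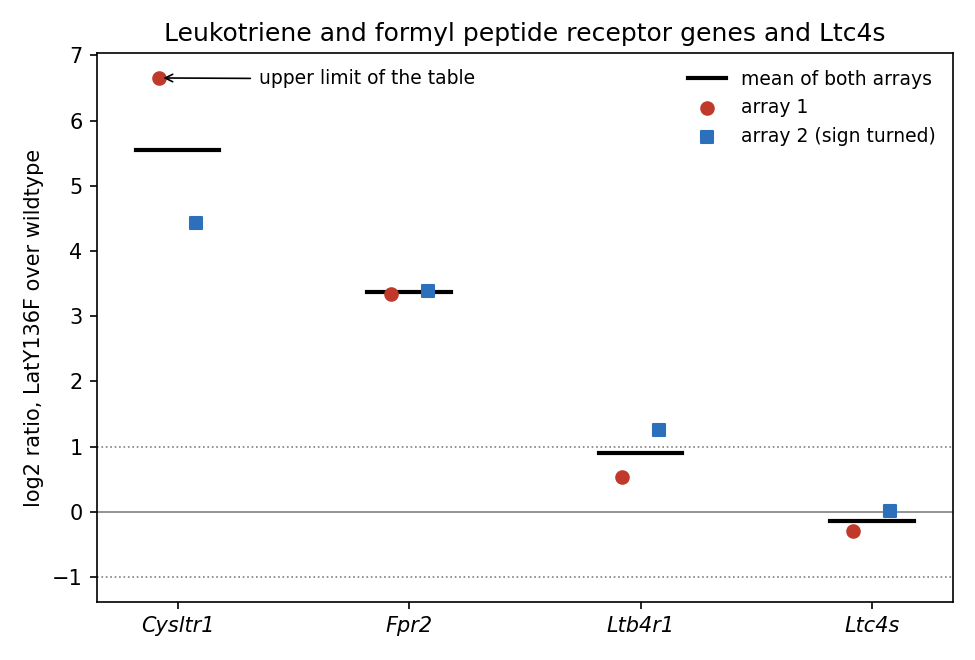
Log2 ratio of LatY136F over wildtype on the vertical axis for the 4 genes, with a red circle for array 1, a blue square for array 2 after its sign was turned, and a bar for their mean; dotted lines mark 2-fold. Cysltr1 lies at 6.65 and 4.43, Fpr2 at 3.34 and 3.39, Ltb4r1 on both sides of the upper dotted line at 0.54 and 1.26, and Ltc4s near 0.

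Cysltr1, the main receptor for the cysteinyl leukotrienes, stood at 6.65 on array 1 and 4.43 on array 2. Both values were far above 0, and the lower of them is a 21.6-fold difference. The deposited array 1 value was exactly 2 on the log10 scale, or 100-fold, and no other probe held it. The next highest array 1 value was 1.63, belonging to the cytokine gene Il6 (42.9-fold). The round value, held by 1 probe only, reads as an upper limit of the table, which could not be checked. If so, the measured array 1 ratio is a lower bound, and so is the mean of 5.54 ± 1.11. Such a bound is on the measured value and not on the true difference, and array 2 gave only 4.43. The turned values of array 2 ended at 23.1-fold with the growth factor gene Csf1, and Cysltr1, deposited there as -1.33, was the next below it. Cysltr1 thus ranked first of 4331 genes on array 1 and number 2 on array 2. Its 2 arrays lay further apart than those of most genes: the ± of 1.11 was at the 97.0th percentile of all genes, and was the highest among the 18 genes at least 8-fold higher on both arrays (0.416% of genes), whose median was 0.13. If 1 of its values is a bound, that ± is itself a lower bound.

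Fpr2 stood at 3.34 on array 1 and 3.39 on array 2. The arrays gave nearly the same ratio, 10.1-fold and 10.5-fold, with a mean of 3.37 ± 0.02. Fpr2 ranked number 19 on array 1 and number 13 on array 2. Its ± was smaller than that of most genes (9.28th percentile), against a median of 0.15 over all genes and 0.09 over the 182 genes called higher. Fpr2 lies on chromosome 17 in a cluster of formyl peptide receptor genes, next to Fpr1 and Fpr3. These related genes are alike in sequence, so a probe of one may also bind RNA of another, which was not tested.

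Ltb4r1, the high-affinity receptor for leukotriene B4, stood at 0.54 on array 1 and 1.26 on array 2. Both values were above 0, at 1.45-fold and 2.39-fold, and only the second passed 2-fold. The mean was 0.90 ± 0.36 (1.86-fold). On array 2 alone 7.87% of genes were at least 2-fold higher, and 9.42% on array 1 alone. A window chosen after the values were seen held 260 other genes within 0.25 of this mean on the log2 scale. Of these, 12 were called higher, 151 passed 2-fold on 1 array only, and 97 on neither; 85 had a ± at least as large as that of Ltb4r1. A gene with a mean below 2-fold cannot be at least 2-fold higher on both arrays. The few calls in this window therefore follow largely from where it was placed, and nothing is read from them.

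The promoters of Fpr2 and Ltb4r1 are printed because one gene was about 10.3-fold higher and the other not called; Ltc4s has an entry too, and Cysltr1 has none in the table used. The sequences are from RefSeq (GRCm38.p6), from 250 bases before to 50 after the annotated start, both on the + strand. Fpr2 is at chr17:17887574-17887873 and Ltb4r1 at chr14:55765712-55766011. Capitals mark every match, on either strand, to 3 motifs: the GATA factor core AGATAA, the PU.1-type core GAGGAA and the STAT-type repeat TTCNNNGAA. No marked matches overlap.
Fpr2: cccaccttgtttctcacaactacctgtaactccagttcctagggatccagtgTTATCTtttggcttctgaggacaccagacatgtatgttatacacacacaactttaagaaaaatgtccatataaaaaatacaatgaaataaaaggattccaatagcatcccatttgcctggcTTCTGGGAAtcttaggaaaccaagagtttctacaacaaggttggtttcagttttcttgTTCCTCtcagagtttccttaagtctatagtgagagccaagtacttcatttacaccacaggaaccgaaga
Ltb4r1: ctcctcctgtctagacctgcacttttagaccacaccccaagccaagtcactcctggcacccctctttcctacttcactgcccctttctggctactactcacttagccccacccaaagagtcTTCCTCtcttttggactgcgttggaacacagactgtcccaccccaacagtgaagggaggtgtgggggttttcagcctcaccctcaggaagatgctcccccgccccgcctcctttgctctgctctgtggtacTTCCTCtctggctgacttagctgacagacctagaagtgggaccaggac
The Fpr2 window held 1 match to each motif: TTATCT, the reverse strand of the GATA core, starting 198 bases before the annotated start, TTCTGGGAA 77 bases before it and TTCCTC, the reverse strand of the PU.1-type core, 19 bases before it. Ltb4r1 held TTCCTC at 2 places and neither of the other motifs, and Ltc4s held it at 1 place. Among 32851 promoter windows of the same length, 11.2% held the GATA core, 28.3% the PU.1-type core and 8.30% the STAT-type repeat. The windows differed in base composition, with 39.3% G and C in Fpr2, 56.3% in Ltb4r1 and a median of 52.7% over all windows. A match is a string of letters and does not show binding.

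The 4 genes fell in the order Cysltr1, Fpr2, Ltb4r1, Ltc4s on both arrays, and no neighbouring pair overlapped in its array values. Cysltr1 lay above Fpr2 by 3.31 on array 1, a lower bound if the table was capped there, and by 1.04 on array 2. Fpr2 lay above Ltb4r1 by 2.47 in the mean, with the ± of both summing to 0.38. Ltb4r1 lay above Ltc4s by 1.04, with a summed ± of 0.52. These are differences between ratios and say nothing of which transcript was more abundant. The receptors were chosen with these values known, and ± comes from a single dye-reversed pair, so no gap was tested.

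**Figure D2:**
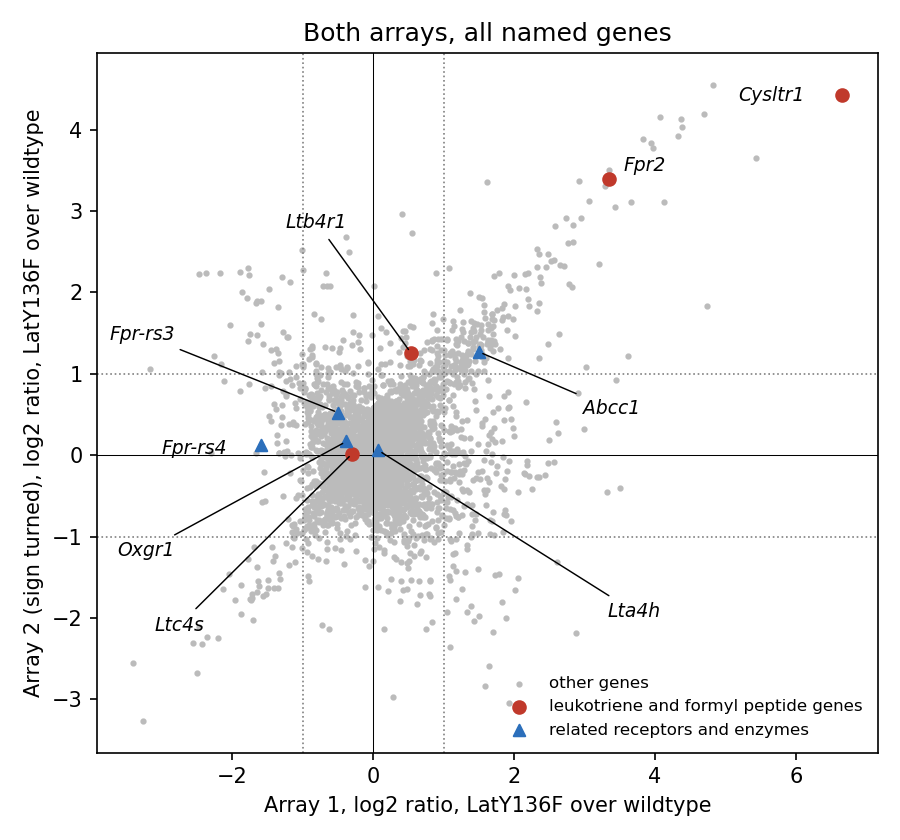
Log2 ratio of LatY136F over wildtype on array 1 (horizontal) and on array 2 after its sign was turned (vertical), 1 point per gene, with dotted lines at 2-fold. Cysltr1 and Fpr2 lie among the few genes far out on both axes, Abcc1 is just past both upper lines, and Ltb4r1 is past the line of array 2 only.

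Of 6 leukotriene receptor genes listed, 3 were measured. Beside Cysltr1 and Ltb4r1 this was Oxgr1, a 2-oxoglutarate receptor that has also been described as a receptor for leukotriene E4. Oxgr1 stood at -0.38 on array 1 and 0.17 on array 2, with opposite signs. The list's median of 0.90 (0.54 from array 1 and 1.26 from array 2, each by itself) was the value of Ltb4r1 itself. The median over all genes was 0.00039. In the list 1 gene was called higher and 0 lower, beside 4.20% and 0.970% of all genes. Nothing is read from the list's median or count, since Cysltr1 and Ltb4r1 were chosen with their values known.

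Of 7 formyl peptide receptor genes, 3 were measured and Fpr2 alone was called, beside 4.20% of all genes called higher and 0.970% lower. Nothing is read from this count, since Fpr2 was chosen with its values known. Fpr-rs3 stood at -0.49 on array 1 and 0.52 on array 2, and Fpr-rs4, the second gene along from Fpr2 on chromosome 17, at -1.59 and 0.12. In mice these receptors are expressed in sensory neurons of the vomeronasal organ. Both had opposite signs on the arrays and so have no direction here, and the list's median of 0.01 was -0.49 from array 1 and 0.52 from array 2, each by itself.

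The enzymes and the transporter around the receptors differed among themselves. Ltc4s, which joins glutathione to leukotriene A4 in the first step to the cysteinyl leukotrienes, stood at -0.30 on array 1 and 0.02 on array 2 (mean -0.14 ± 0.16). Lta4h, which makes leukotriene B4, stood at 0.07 on array 1 and 0.06 on array 2. Both enzymes were thus close to 0 on both arrays, with no call. Abcc1, a membrane transporter that exports leukotriene C4 and many other conjugates, was called higher at 1.502 on array 1 and 1.27 on array 2 (1.39 ± 0.12, 2.61-fold). Of 9 synthesis and export genes listed, 3 were measured, with 1 higher, 0 lower and a median of 0.07. Over all genes 4.20% were called higher and 0.970% lower, and nothing is read from a count over so few genes. None of 7 genes of leukotriene conversion and breakdown and none of 20 phospholipase A2 genes was measured, and of the other lipoxygenases only Alox12b, an enzyme of the skin barrier, was, at 0.12 on array 1 and -0.15 on array 2.

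Of 5 genes for protein ligands of Fpr2, 2 were measured. Anxa1, which encodes annexin A1, stood at 3.83 on array 1 and 3.89 on array 2. It was 14.5-fold higher (3.86 ± 0.03), and its ratio was above that of Fpr2 on each array. Saa3, a serum amyloid A gene, stood at 0.46 on array 1 and 0.47 on array 2 and was not called. Over all genes 4.20% were called higher, and nothing is read from 1 call among 2 genes.

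Among other receptors of the same superfamily, large ratios belonged to a few genes of a list. Over all genes 4.20% were called higher and 0.970% lower. At these shares short lists, here and in the next paragraph, would hold few calls. None of 6 other chemoattractant receptors was called (median 0.17, but 0.33 on array 2 alone), with Ccrl2, an atypical receptor that binds chemerin, highest at 0.70 ± 0.15. Of 9 prostanoid receptors, which bind the other main class of arachidonic acid products, 2 were higher and 1 lower (median 0.35, but -0.13 on array 1 alone). Ptgir, the prostacyclin receptor, stood at 3.44 on array 1 and 3.05 on array 2, near the values of Fpr2. Ptger4, a prostaglandin E receptor, stood at 1.54 on array 1 and 1.94 on array 2, and Tbxa2r, the thromboxane receptor, was lower at -1.71 on both. None of 7 lysophospholipid receptors was called (median -0.05, with -0.10 from array 1 and -0.02 from array 2, each by itself), with S1pr1, which guides lymphocytes out of lymphoid organs, furthest from 0 at -0.29 ± 0.18.

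Cysltr1 is close in sequence to the nucleotide receptors of the P2Y family. Of 4 of these measured, P2ry14, a receptor for UDP-glucose, was called higher at 3.02 on array 1 and 1.08 on array 2. The other 3 were not called, and the list's median was 0.51, with 1.15 from array 1 and 0.18 from array 2, each by itself. Of 18 chemokine receptors, 2 were higher and 1 lower, with a median of -0.02 that was above 0 on each array alone (0.07 on array 1 and 0.20 on array 2). Ccr2, a receptor of monocytes and effector T cells, stood at 3.34 on array 1 and 3.50 on array 2, Ccr1 at 1.35 and 1.12, and Ccr7, which guides naive T cells into lymph nodes, was lower at -1.70 and -2.03. None of 6 measured genes of the G protein relay behind these receptors was called (median 0.25, but 0.44 on array 1 alone). Pik3cg, the phosphoinositide kinase activated by G protein-coupled receptors, was furthest from 0 among them at 0.55 ± 0.01.

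**Figure D3:**
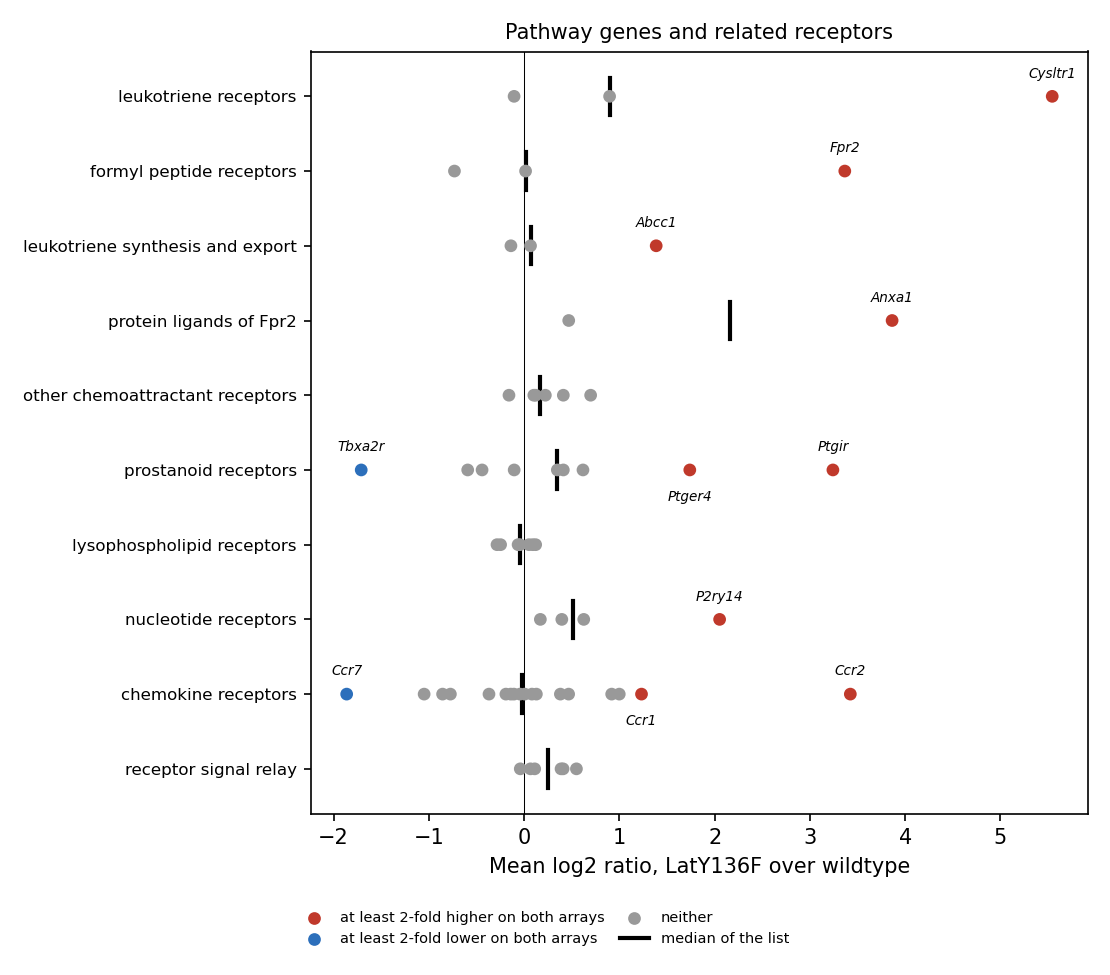
Mean log2 ratio of LatY136F over wildtype (horizontal axis), 1 point per measured gene, by gene list, with called genes coloured and named and a bar at each list's median. Cysltr1 lies furthest to the right, Fpr2, Anxa1, Ptgir and Ccr2 lie between 3.24 and 3.86, and most other members of their lists lie near 0.

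The genes most like each receptor were taken as the nearest by Euclidean distance over its 2 array ratios, which is a likeness over 2 numbers only. Nearest to Cysltr1 were Il6, a cytokine gene, at a distance of 1.45, Csf1, the macrophage growth factor gene, at 1.84, and Ccl8, a chemokine gene, at 1.97. No gene lay close to Cysltr1, whose array 1 value may be a bound. Nearest to Fpr2 were Asns, asparagine synthetase, at 0.10, Ccr2 at 0.12 and Ptgir at 0.35. Nearest to Ltb4r1 were Sorl1, a sorting receptor gene, at 0.03, Rrm2, a subunit of ribonucleotide reductase, at 0.07 and Dab2, an endocytic adaptor, at 0.10. Many genes had ratios like those of Ltb4r1, so its neighbours stand for little.

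Few of the genes beside the receptors on their chromosomes were measured, and none of the measured ones was called. The 3 protein-coding genes before and the 3 after each receptor were taken, in order of their start. Of these 6, 1 was measured beside Cysltr1 on chromosome X (Taf9b, at -0.84 on array 1 and 0.65 on array 2). Beside Fpr2, 2 were measured (Fpr-rs4 and Spaca6), and 2 beside Ltb4r1 on chromosome 14. The pair beside Ltb4r1 were Ripk3, a kinase gene of necroptosis, at 0.47 ± 0.32 and Cideb at -0.16 ± 0.19. Over all genes 4.20% were called higher and 0.970% lower, so nothing is read from the lack of calls in so few neighbours.

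Cysltr1 and Fpr2 are also expressed by myeloid cells, and markers of such cells were higher in the same RNA. Over all genes 4.20% were called higher and 0.970% lower, the shares to set beside the count of each marker list. Of 14 monocyte and macrophage markers measured, 6 were called higher and 0 lower, with a median of 1.20 and a range of -0.45 to 2.73. Mrc1, the macrophage mannose receptor, was highest at 2.84 on array 1 and 2.62 on array 2. The complement gene C1qc followed at 2.48 ± 0.08, then Lyz1 (2.27 ± 0.09), Fcer1g (2.83-fold), Adgre1 (1.49 ± 0.17) and C1qa (1.39 ± 0.26). Itgam, the CD11b integrin chain, stood at 0.29 ± 0.07, Ctss at -0.13, Marco at -0.34 and Msr1 at -0.45. Of 7 neutrophil markers, 3 were higher and 0 lower (median 1.02, but 1.71 from array 1 and 1.38 from array 2, each by itself; range 0.16 to 3.62), namely Il1r2 at 3.62 ± 0.50, Lcn2 at 3.14 ± 0.22 and Ngp at 2.50 ± 0.16, while Csf3r, the receptor of the neutrophil growth factor, stood at 0.16 ± 0.21. The ratio of Cysltr1 was above that of each of these 21 markers on both arrays. That of Fpr2 was above each of the monocyte and macrophage markers on both arrays, and below that of Il1r2 on array 1. Ltb4r1 was above 6 of the 21 markers on array 1 and above 9 on array 2. The receptors had been chosen with their values known, and Cysltr1 and Fpr2 ranked near the top of all genes. Nothing is therefore read from these comparisons with the markers. The part of these cells in the receptor ratios was not tested.

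Mast cells, eosinophils and basophils also carry Cysltr1. Of 6 of their markers measured, 0 were called (median 0.87, but 0.38 on array 2 alone, and range 0.17 to 1.20). All 6 had means above 0, beside 2168 of 4331 genes in all, and nothing is read from so few. Ms4a2, a chain of the high-affinity IgE receptor, was highest at 0.96 on array 1 and 1.43 on array 2. Their part was not tested either. Platelet markers were higher for Pf4 (1.55 ± 0.36) and Itga2b (1.20 ± 0.09) of 3 measured, with a median of 1.20 and Itgb3 at -0.39. Erythroid markers were higher for Epor (2.42 ± 0.06) and Hba-a1 (1.07 ± 0.06) of 3 measured, with a median of 1.07.

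Markers of the sorted cells were close to even. None of 8 T cell markers was called, with a median of -0.12 and a range of -0.88 to 0.81. Cd247, the zeta chain of the T cell receptor complex, was furthest from 0 at -0.42 on array 1 and -1.34 on array 2, and Cd4 stood at -0.07 on array 1 and -0.26 on array 2. Lat stood at -0.16 on array 1 and -0.17 on array 2, which does not check the genotype, since the substitution leaves the transcript in place. Of 9 T helper 2 genes, 3 were higher and 0 lower with a median of 0.41 (0.86 from array 1 and 0.44 from array 2, each by itself): the cytokine gene Il13 at 3.39 ± 0.27, the transcription factor gene Gata3 at 2.93 ± 0.02 and the receptor gene Il17rb at 2.19 ± 0.04. Il4, the defining cytokine of these cells, had opposite signs at 1.41 on array 1 and -0.97 on array 2, and Maf, which encodes an activator of Il4, was below 0 on both arrays at -0.46 and -0.32. The chemokine receptor genes Ccr4 and Ccr8 also had means below 0, at -0.04 ± 0.25 and -0.14 ± 0.44, and Il5 stood at 1.14 ± 0.28. LatY136F T cells are known for a T helper 2 programme. On the direction used, the 3 called genes were higher, as in such a programme, while Il4 and Maf were not called. The direction was taken from the channels by assumption and was not tested against this list. Ptgdr2, a prostaglandin D receptor of T helper 2 cells, stood at 0.38 on array 1 and 0.44 on array 2 and was not called. Among B cell markers 6 of 9 were called lower and 0 higher, beside 0.970% and 4.20% of all genes. Their median was -1.59, with Cd79b, a chain of the B cell receptor complex, lowest at -2.29 ± 0.18. The others called were the complement receptor gene Cr2 (-1.76), Cd72 (-1.73), the adaptor Blnk (-1.61), Cd22 (-1.59) and the low-affinity IgE receptor gene Fcer2a (-1.14). Of 6 dendritic cell markers 1, Cst3, was higher (1.19 ± 0.05, list median 0.17, but -0.0025 from array 1 and 0.42 from array 2, each by itself), and of 4 natural killer cell markers 1, Klrd1, was lower (-1.75 ± 0.01, list median -0.33, but -0.99 on array 2 alone).

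**Figure D4:**
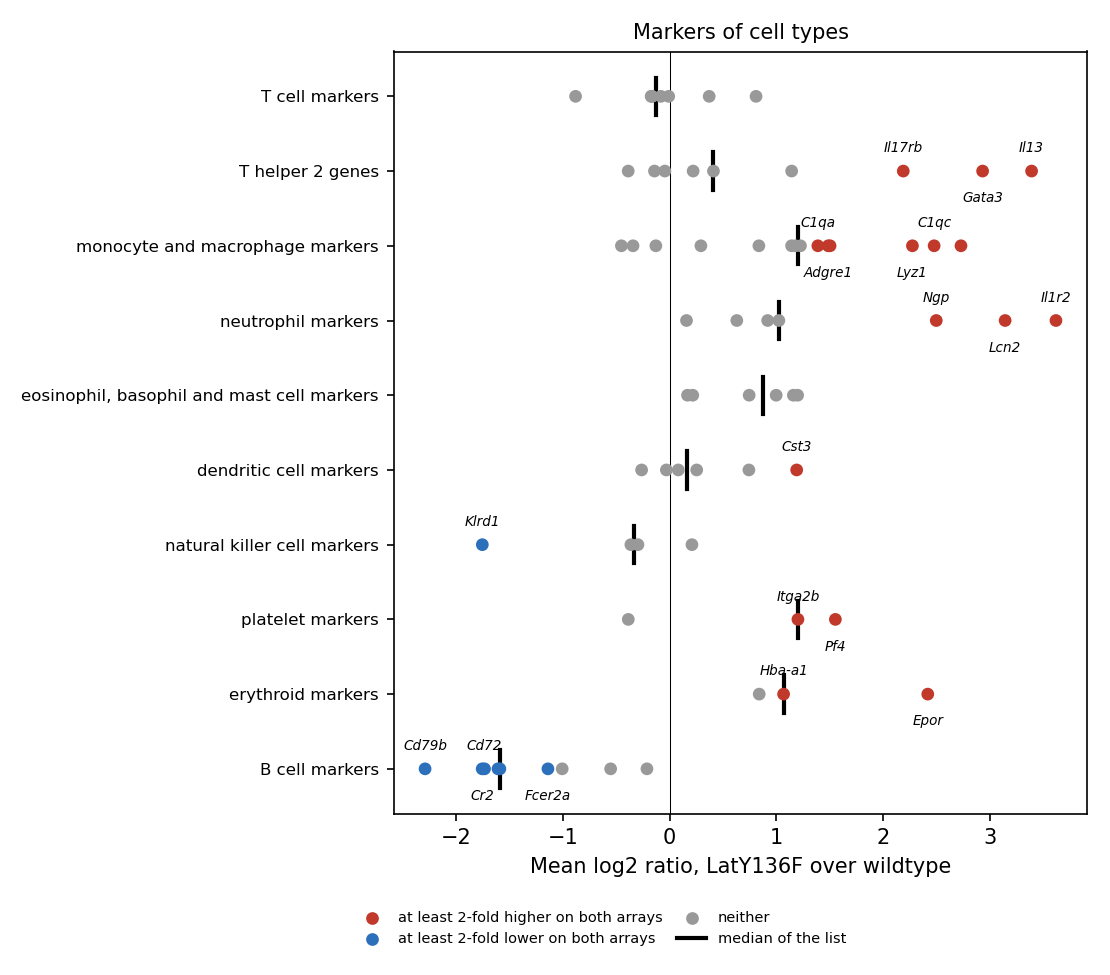
Mean log2 ratio of LatY136F over wildtype (horizontal axis), 1 point per measured marker, by cell type, with called genes coloured, some of them named, and a bar at each list's median. T cell markers centre near 0, monocyte, macrophage and neutrophil markers lie mostly to the right, and all 9 B cell markers lie to the left.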

How the data were processed

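Two-colour arrays of total RNA were analysed from the deposited value table, with 1 log ratio per probe and array; how the authors corrected, normalized and filtered the signals is not stated in the labels. The values the authors deposited were read as log10 ratios, since the highest is exactly 2, and the base is likely but not certain. They were multiplied by 3.32 to give log2 ratios; array 2, the dye-reversed array per the labels, was turned, each array was centred on its median and probes of a gene were averaged (Python 3.11.15, pandas 2.3.3). Of 8014 probes, 4654 had 1 gene symbol, 73 several and 3287 none; only the first were named, giving 4331 genes. The probe accessions of all 4 genes matched RefSeq transcripts of the same symbol. No depth exists for arrays, and their number limits the precision.

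The members, the 23 gene lists (242 genes, 124 measured) and the thresholds were chosen with earlier results of these data known. Named genes were all members, every called gene of a list (or the one furthest from 0 where none was), every measured gene of the leukotriene, formyl peptide receptor, lipoxygenase and Fpr2 ligand lists, and the 3 genes nearest to each receptor; other genes, such as Cd4, Lat, Il4, Maf, Itgam, Taf9b and Ripk3, were named after their values were seen. The calling rule was tried on simulated data, with errors of 0.5 times the gap between arrays drawn separately for each array. Errors of that size can understate those of a single array, and errors shared by both arrays were left out. The simulation therefore does not show how reliable a call is. Alternatives covered centring, scaling, single arrays, probe choice, direction, log base, zeros, thresholds and single probes.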

Additional observations from a re-analysis of the deposited data

How the results depend on the processing

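Cysltr1 and Fpr2 were called higher under 10 of 11 alternatives and lower under the 11th, the opposite direction of the ratio; Ltb4r1 was called higher under 1, array 2 alone, and Ltc4s under none. With channel 1 over channel 2 the means turned to -5.54 (Cysltr1), -3.37 (Fpr2), -0.90 (Ltb4r1) and 0.14 (Ltc4s), and the counts became 42 genes higher and 182 lower. Read as log2, the means were 1.67, 1.01 and 0.27 for Cysltr1, Fpr2 and Ltb4r1, with 13 genes higher and 0 lower. Single arrays gave 4.43 to 6.65 for Cysltr1, 3.34 to 3.39 for Fpr2, 0.54 to 1.26 for Ltb4r1 and -0.30 to 0.02 for Ltc4s, and called 341 to 408 genes higher and 145 to 151 lower, as 1 array is then enough. Thresholds moved the counts by construction, to 339 and 127 at 1.5-fold and 69 and 19 at 3-fold, and counting all 8014 probes singly gave 288 and 84. Centring, scaling, probe choice, zeros and a threshold on the mean kept both counts within 1.5 times. Of 19 list medians, 1 changed sign without centring, 1 on array 2 alone and 4 on array 1 alone, so medians near 0 have no direction. No paired analysis was possible because the 2 arrays make up a single comparison without a second group. Signal over background was not analysed here, so the precision of a single ratio is unknown.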
